A study of Mus musculus with 24 samples.

Results

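The 44 genes described here encode the enzymes and assembly factors that copy DNA in S phase, with the regulators that switch them on. They were taken by symbol from a list of S phase genes, on the condition of a mean raw count of at least 10 over the 24 libraries. All 44 listed genes met it, out of 55487 genes in the count table. All 44 also passed the filter on low counts that left 14535 genes for testing. Messenger RNA had been sequenced from bone-marrow-derived dendritic cells, which are grown from mouse marrow in medium with the cytokine GM-CSF. Marrow came from male and female mice aged 8 to 10 weeks, and the cultures were replated on day 4 and day 7. Cells in suspension were collected on days 7, 8, 9 and 10, and adherent cells were thrown away. Every mouse carried both floxed copies of Arpc4, a subunit of the Arp2/3 complex that nucleates branched actin. WT cultures had no Cre (CD11c-Cre -/-) and KO cultures carried it (CD11c-Cre +/-). The CD11c promoter drives Cre, so deletion is limited to cells that have switched CD11c on. Each genotype had 3 mice, numbered 63, 65 and 66 for WT and 64, 67 and 68 for KO, which gave 8 groups of 3 libraries. The study followed how control and KO cells change over these 4 days, and the last day was its end point.

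Before a cell divides, the origin recognition complex together with Cdc6 and Cdt1 loads a ring of 6 MCM proteins on DNA. Cdc45 and the GINS proteins then turn the ring into a working helicase, and primase with polymerases alpha, delta and epsilon copies the strands. Pcna, a ring that holds polymerases on the template, is loaded by the Rfc proteins. E2F transcription factors and cyclin E switch many of these genes on as cells leave G1, and the encoded transcripts are low in cells at rest. Precursors in GM-CSF cultures still divide, while mature dendritic cells have largely stopped.

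Library totals ran from 19952047 to 31049798 counts. Arpc4 was lower in every KO library than in every WT library of the same day. The log2 differences were -0.28 to -0.18, and none passed the threshold in edgeR's quasi-likelihood test (adjusted p from 0.177 to 0.689). The counts cover the whole gene, and reads over the deleted part were not separated here. Itgax, which encodes CD11c, ran from 750.0 to 1660.3 CPM (counts after scaling every library to the same total), and the protocol gives more than 90% CD11c+ cells. The summed CPM of 6 macrophage markers was 2230 to 4416, and that of 9 neutrophil markers was 1754 to 5967. B cell, T or NK cell and erythroid marker lists summed to at most 6.04, 3.37 and 1.29 CPM. Each group held 1 library with high Ddx3y, a Y-linked gene, and almost no Xist. In WT this was always mouse 63. In KO the label number of that library was 64 for day 7, then 68, then 64, and 67 for the last day. The KO numbers in the labels therefore cannot each follow 1 mouse through the 4 days, and KO libraries are named below by the number in their label. Counts, medians and spreads that rest on those libraries are also given without the high Ddx3y library of each group, which leaves 2 libraries per group.

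The stretches below lie upstream of 4 of the genes and are shown because all 4 moved with the days, and because each holds an 8-base word of the kind E2F binds. They are from RefSeq on GRCm38.p6, on the strand of the gene and 5′ to 3′, and were cut so that no exon of GENCODE M21 is included. Capitals mark the E2F words (TTTGGCGC, TTTCCCGC, TTTGCCGC or TTTCGCGC on either strand), joined where 2 of them overlap. The Mcm6 stretch is at chr1:128359706-128359855 (minus strand), from 150 to 1 bases before the transcript start, outside annotated genes. The Mcm5 stretch is at chr8:75109316-75109407 (plus strand), from 193 to 102 bases before the start, also outside annotated genes. The Cdc6 stretch at chr11:98907982-98908060 (plus strand, 169 to 91 bases before) and the Uhrf1 stretch at chr17:56304088-56304175 (plus strand, 225 to 138 bases before) lie in introns of longer transcripts.
Mcm6: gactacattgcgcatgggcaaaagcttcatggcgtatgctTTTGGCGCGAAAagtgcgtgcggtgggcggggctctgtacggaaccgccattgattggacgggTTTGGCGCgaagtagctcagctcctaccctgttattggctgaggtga
Mcm5: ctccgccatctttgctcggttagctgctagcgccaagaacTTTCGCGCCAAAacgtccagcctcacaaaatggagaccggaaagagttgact
Cdc6: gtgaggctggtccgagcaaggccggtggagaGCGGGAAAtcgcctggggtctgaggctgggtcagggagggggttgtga
Uhrf1: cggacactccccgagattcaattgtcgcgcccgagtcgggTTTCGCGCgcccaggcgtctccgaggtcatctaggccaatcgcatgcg

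Of the 44 genes, 36 matched a RefSeq promoter entry. An E2F word stood in the 250 bases upstream of 9 of these 36 (25.0%), and in 583 of all 27025 genes with an entry (2.16%). The 9 genes were Mcm5, Mcm6, Mcm7, Cdc6, Gins3, Orc1, Pola1, Rfc3 and Uhrf1. It stood upstream of 12 of 42 other replication genes with an entry (28.57%), and of 1 of 24 mitosis genes (4.17%). The CCAAT word stood upstream of 20 of the 36 (55.56%), against 37.49% of all genes and 79.17% of the mitosis genes. The word TTTGAA of the cell cycle homology region stood upstream of 6 (16.67%), against 18.26% of all genes. These are matches of letters in a window and say nothing of whether a factor was bound.

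The mean level was higher on each day up to day 9 and nearly the same on day 10, in both genotypes. Averaged over the 44 genes, the WT level was 3.25 ± 0.08 log2 CPM (SD, n = 3) on day 7 and 4.01 ± 0.18 a day later, and reached 4.74 ± 0.16 on day 9 and 4.80 ± 0.15 on day 10. In KO it was 3.71 ± 0.22, 4.00 ± 0.44, 4.77 ± 0.39 and 4.86 ± 0.39 on the same days. The WT libraries of day 7 all lay below those of day 8, and those of day 8 below those of day 9, while days 9 and 10 overlapped. In KO the neighbouring days overlapped throughout, and the 3 libraries of a day were further apart. In bulk RNA a larger share of dividing cells and more transcript per dividing cell cannot be told apart.

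**Figure D1:**
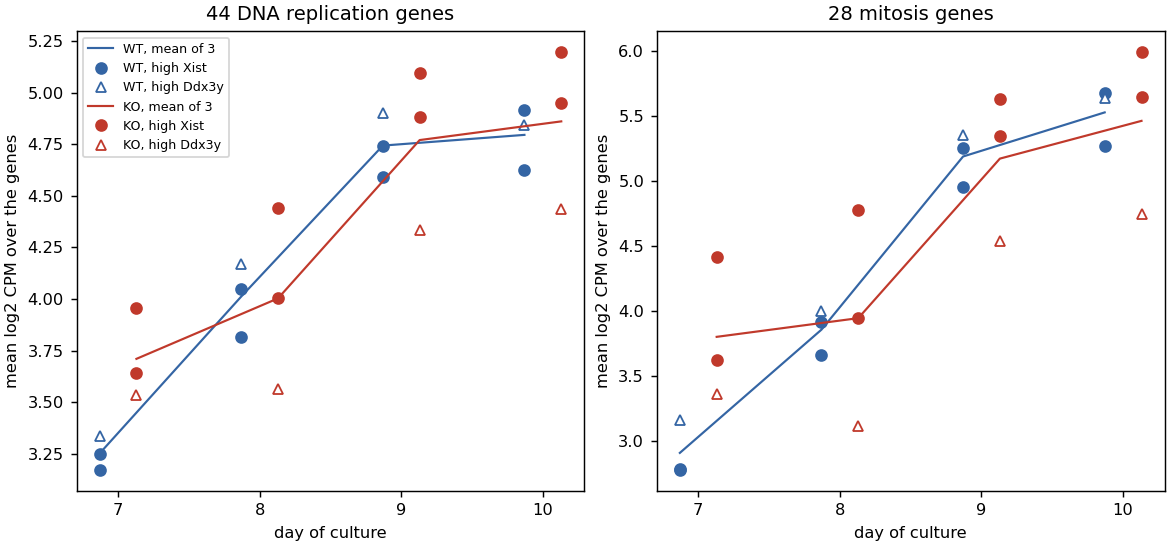
Mean log2 CPM over the 44 DNA replication genes (left) and over 28 mitosis genes (right) in each of 24 libraries, by day of culture. Blue is WT and red is KO, lines join means of 3 libraries, filled circles are libraries with high Xist and open triangles those with high Ddx3y. The KO triangles are the lowest KO points on every day, at 3.53, 3.56, 4.33 and 4.44 in the left panel.

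Compared per length, in TPM (abundance scaled by transcript length), the genes covered a wide range. Pcna was the highest on every day in both genotypes, with group means from 159 to 202 TPM. Dscc1, part of an alternative clamp loader, was the lowest, with 0.317 TPM in WT on day 7 and 1.80 on day 10. The 6 MCM genes lay between 7.73 TPM (Mcm2) and 24.6 TPM (Mcm3) in WT on day 7, and between 31.7 and 85.9 TPM on day 10. Rrm2, the regulated subunit of ribonucleotide reductase, went from 15.7 TPM to 106 TPM and was then second to Pcna.

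From day 7 to day 8, most of the replication genes rose in WT. Of the 44, 27 rose and 2 fell, where 21.5% of all tested genes rose and 22% fell. The median log2 change of the 44 was 0.80, 40 of them were higher, and the median over all tested genes was 0.00. By role, 5 of 6 MCM genes rose, 5 of 9 licensing and firing genes, 5 of 7 polymerase genes, 4 of 6 genes of nucleotide supply and uracil removal, 3 of 5 of chromatin assembly and all 3 of the E2F and cyclin E group. Clamp and clamp loader genes went both ways, with 1 rise and 2 falls among 6. Fen1 rose, and of that pair of flap and ligation genes Lig1 did not pass. Without the high Ddx3y libraries 30 of the 44 rose and 2 fell, where 18.9% and 18.2% of tested genes did. The make-up of the libraries changed at the same step, since the 10 most counted genes took 20.9% to 21.3% of WT counts on day 7 and 13.8% to 14.05% on day 8. The summed CPM of 3 mast cell or basophil markers was 14.1 to 21.2 and then 35.9 to 54.5. The part of these in the result was not tested. On the log2(TPM + 1) scale the median change of all tested genes was 0.17 in each genotype, and that of the 44 was 0.92 in WT and 0.46 in KO.

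Orc1 (chr4:108579423-108614833, plus strand on GRCm38), the largest subunit of the origin recognition complex, had the steepest rise. Its WT libraries (mice 63, 65 and 66) held 0.522, 0.421 and 0.513 CPM on day 7, 3.46, 2.03 and 3.27 on day 8, 6.07, 3.86 and 5.31 on day 9 and 3.52, 3.06 and 4.65 on day 10. Day 7 was below every later library, and day 9 had the highest mean. The day 8 change was 2.57 ± 0.35 on the log2 scale (SE, adjusted p = 5.79e-06). Orc1 is a low gene, with a lowest raw count of 9.

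Among the MCM genes Mcm5 moved most. It held 18.98, 13.8 and 15.2 CPM in WT on day 7, 56.8, 41.1 and 50.9 on day 8, 105, 76.6 and 85.1 on day 9 and 91.97, 79.8 and 109 on day 10. The first 3 days did not overlap, and days 9 and 10 did. The change to day 8 was 1.63 ± 0.31 (log2, adjusted p = 0.000226). Mcm6, the most counted of the 6, followed the same order at a smaller change of 0.79 ± 0.22 (adjusted p = 0.00697), from 40.4, 34.5 and 35.96 to 72.1, 55.6 and 64.7 CPM. Mcm7 was the MCM gene that missed the threshold on this step (0.73 ± 0.30, adjusted p = 0.0589).

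Of the polymerase genes, Pole (chr5:110286306-110337474, plus strand), the catalytic subunit of polymerase epsilon on the leading strand, changed most. Its WT values were 4.29, 2.99 and 3.29 CPM on day 7, 11.8, 9.30 and 9.97 on day 8, 25.2, 19.2 and 21.7 on day 9 and 29.99, 21.1 and 25.2 on day 10, with no overlap over the first 3 days. The day 8 change was 1.55 ± 0.37 (log2, adjusted p = 0.00204). Pold1, the catalytic subunit of polymerase delta, had the highest mean CPM of the group over all libraries. It went from 18.6, 15.6 and 16.5 to 30.3, 24.7 and 30.97 CPM, a change of 0.76 ± 0.20 (adjusted p = 0.00382). Pold2, its accessory subunit, had made nearly all of its rise by day 8 (0.90 ± 0.16), and its next step of 0.13 ± 0.16 did not pass. Pola1 and Pola2, of the polymerase that starts new strands, missed the threshold on the first step at adjusted p = 0.0537 and 0.0594.

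Uhrf1, which brings the maintenance DNA methyltransferase to new strands, had the highest mean CPM of the chromatin group over all libraries and its largest change at this step. WT libraries held 12.4, 8.70 and 8.34 CPM on day 7, 38.6, 25.6 and 32.96 on day 8, 75.3, 54.5 and 64.03 on day 9 and 69.9, 57.6 and 76.6 on day 10. Days 7, 8 and 9 were apart from one another, and the first change was 1.72 ± 0.35 (log2, adjusted p = 0.000465). Ccne2, one of the 2 E-type cyclins, went from 2.41, 2.48 and 2.05 to 8.49, 6.05 and 6.82 CPM, a change of 1.62 ± 0.44 (adjusted p = 0.00538). E2f1 itself had a small change of 0.19 ± 0.08 (adjusted p = 0.0467), from 34.4, 34.6 and 33.7 to 41.7, 34.8 and 40.7 CPM. The E2f1 ranges of the 2 days were apart by a narrow margin, and its call held in 4 of 10 other settings and in 16 of 24 fits with a single library left out.

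Rfc2 and Pcna went the other way. Rfc2, a subunit of the clamp loader, held 65.2, 74.3 and 69.4 CPM in WT on day 7, 40.2, 38.3 and 39.9 on day 8, 56.5, 54.8 and 51.7 on day 9 and 58.6, 57.1 and 64.5 on day 10. It was highest on day 7, lowest on day 8 and in between on day 9, with no overlap of those 3 days. It fell by 0.82 on the log2 scale at the first step (SE 0.08, adjusted p = 1.94e-07) and rose by 0.46 ± 0.08 at the second (adjusted p = 0.00480). In KO it held 63.6, 69.96 and 70.98 CPM (libraries 64, 67 and 68) on day 7, 34.95, 41.04 and 40.8 on day 8, 46.6, 53.9 and 53.9 on day 9 and 61.6, 50.8 and 57.9 on day 10. The KO order was the same, with a fall of 0.81 (SE 0.08, adjusted p = 2.36e-07). Rfc2 lies at chr5:134581366-134601805 and overlaps Lat2 on the opposite strand, whose counts came to 279% of those of Rfc2.

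Pcna (chr2:132249162-132253314, minus strand) held 139.7, 154 and 155 CPM in WT on day 7 and 117, 125 and 127 on day 8, and 159, 133 and 142 and 118, 118 and 126 in KO on those days. Day 7 lay above day 8 in each genotype, and the falls were 0.28 (SE 0.08, adjusted p = 0.00956) and 0.26 (SE 0.08, adjusted p = 0.0172) on the log2 scale. These falls depend on the method, since with limma on log2(TPM + 1) the changes were -0.05 in WT (adjusted p = 0.695) and -0.03 in KO (adjusted p = 0.856). In that setting the unit, the scaling and the test all differ. By day 10 Pcna differed from day 7 by -0.13 ± 0.08 in WT and -0.03 ± 0.08 in KO, neither past the threshold. Cdt1, a licensing factor, and Chaf1b, a subunit of a histone chaperone that follows the fork, were also lower on day 8 without passing the test, by -0.10 ± 0.12 and -0.20 ± 0.15 in WT. Chaf1b held 12.6, 12.9 and 15.1 CPM in WT on day 7 and 12.5, 10.03 and 12.9 on day 8, and 13.05, 14.3 and 15.3 and 10.8, 13.5 and 9.80 in KO. The WT libraries of Cdt1 were at 28.4, 30.97 and 29.9 CPM on day 7, 30.2, 24.5 and 28.3 on day 8, 38.6, 33.1 and 33.97 on day 9 and 35.8, 31.6 and 41.3 on day 10. The KO libraries were at 29.3, 28.5 and 29.3, 23.01, 28.9 and 29.8, 31.1, 39.8 and 38.6 and 40.5, 32.04 and 40.6 CPM on the same days. Days 7 and 8 overlapped for Cdt1 in each genotype. Cdt1 stayed between 23.01 and 41.3 CPM in all 24 libraries.

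The step from day 8 to day 9 was upward for every replication gene in WT, though most missed the threshold. All 44 were higher on day 9, by a median of 0.66 (log2). An unadjusted p under 0.05 was reached by 41 of the 44 and by 3173 of 14535 tested genes. Over all genes 11 of the 44 passed the threshold, where 3.06% of tested genes rose. These were Mcm7, Cdc6, Rfc2, Dscc1, Fen1, Lig1, Rrm1, Rrm2, Tk1, Chaf1a and Chaf1b. The count of 11 was 39 in a fit of the WT day 8 and day 9 libraries alone, where 8.63% of tested genes rose, and 20 without the high Ddx3y library of each group, where 2.46% did. It went down to 2 without WT mouse 65 on day 8 or without WT mouse 63 on day 9, and to 7, 3 and 4 without WT mice 63 and 66 on day 8 and mouse 66 on day 9. Leaving out KO library 67 or 68 of day 8 raised it to 18 or 21, and KO library 64 of day 9 or 67 of day 10 to 17 or 20. The shares of all tested genes in the fits with a single library left out are not given here. Those counts therefore do not show a move particular to the 44.

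Nucleotide supply had the steepest members of this step. Tk1 (chr11:117815526-117826092, minus strand), the S phase thymidine kinase, held 3.89, 2.57 and 2.78 CPM in WT on day 7, 6.88, 4.86 and 5.54 on day 8, 20.2, 13.4 and 15.8 on day 9 and 20.7, 16.96 and 21.3 on day 10. No day 8 library reached a day 9 library, and the change was 1.51 ± 0.36 (log2, adjusted p = 0.0204). Rrm1, the large subunit of ribonucleotide reductase and the most counted of its group, went from 66.7, 50.4 and 62.1 to 129.6, 98.9 and 113 CPM (0.93 ± 0.27, adjusted p = 0.0485). Its partner Rrm2 changed by 1.46 ± 0.35 (adjusted p = 0.0203). Tyms, thymidylate synthase, had made more of its change at the first step (1.26 ± 0.27) than at the second (0.74 ± 0.25, adjusted p = 0.0831). The difference between its steps was not tested.

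Lig1 and Fen1, which finish the lagging strand, both rose, while none of the 7 polymerase genes passed. Lig1, the ligase that joins Okazaki fragments, held 15.5, 10.01 and 11.2 CPM on day 7, 21.4, 16.5 and 19.6 on day 8, 48.7, 36.04 and 41.01 on day 9 and 48.1, 36.8 and 47.3 on day 10. Day 9 lay apart from day 8, with a change of 1.13 ± 0.29 (log2, adjusted p = 0.0282). Fen1, the nuclease that trims flaps, went from 20.9, 21.99 and 22.96 on day 7 to 39.5, 31.3 and 37.8 and 62.9, 52.9 and 54.8 CPM on days 8 and 9, and rose at both steps (0.72 ± 0.15 and 0.65 ± 0.15, adjusted p = 0.000701 and 0.0171). Dscc1 had the largest change of the clamp group, 1.39 ± 0.28 (adjusted p = 0.00906), from 1.26, 0.804 and 1.04 to 3.23, 2.05 and 2.86 CPM. Chaf1b, not called at the first step, rose by 0.88 ± 0.15 (adjusted p = 0.00333), from 12.5, 10.03 and 12.9 to 25.3, 19.5 and 20.2 CPM.

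**Figure D2:**
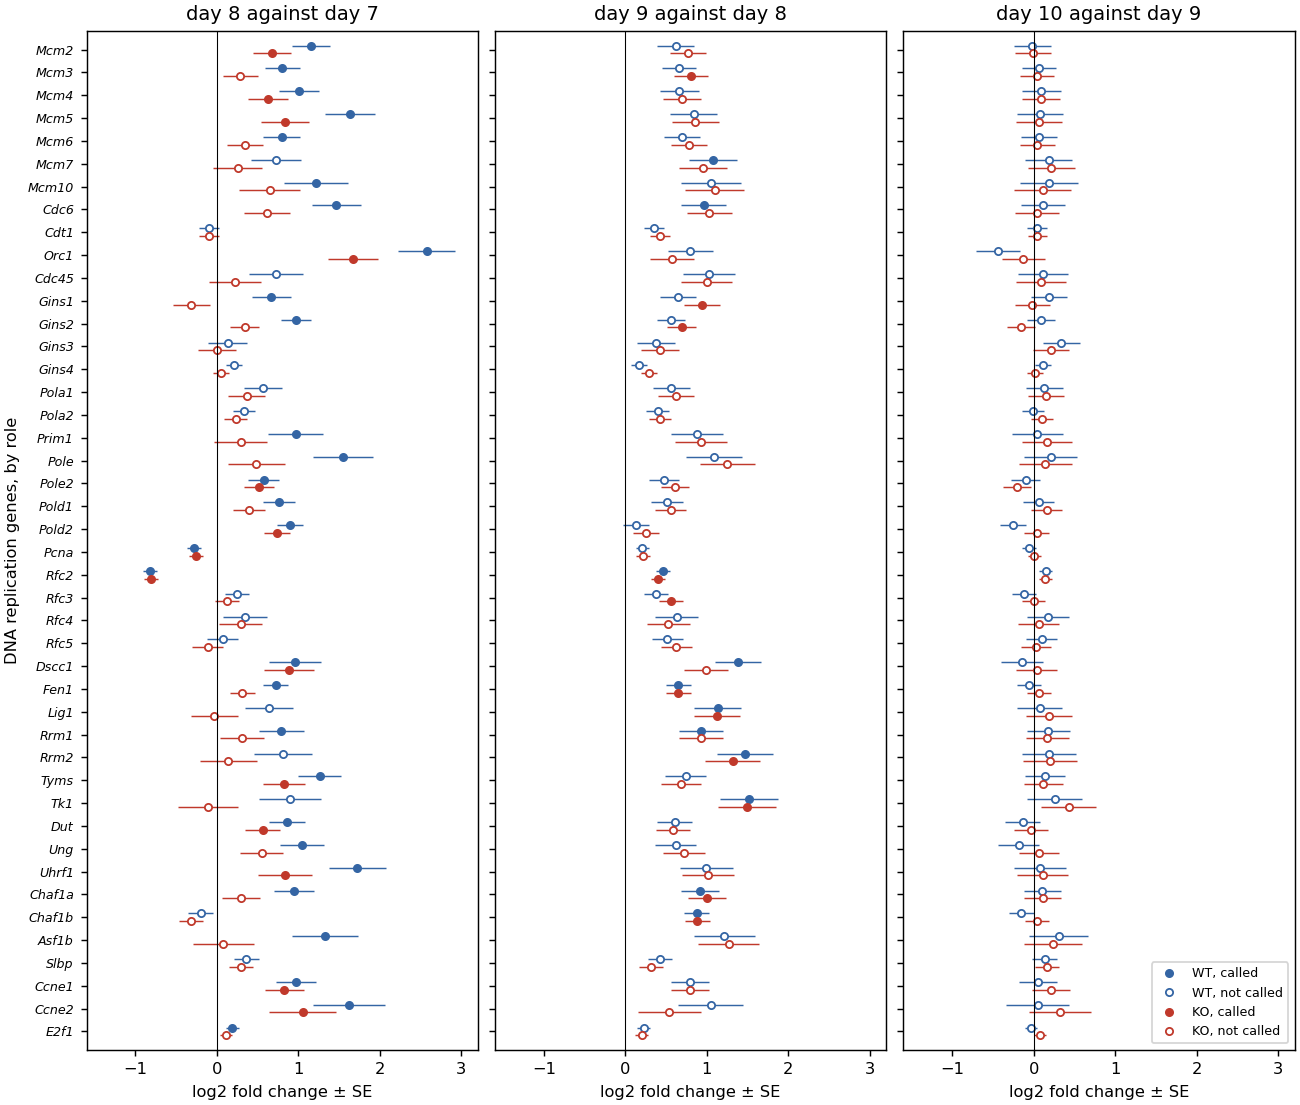
Log2 fold change with SE of each of the 44 genes for the 3 day steps, in WT (blue) and KO (red), with genes ordered by role. Filled points passed an adjusted p of 0.05 over all tested genes. Most points lie right of 0 in the first 2 panels, Rfc2 and Pcna are filled to the left of 0 on the first step, and all are open in the third.

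From day 9 to day 10 none of the 44 genes passed the test in either genotype. In WT 0 of the 44 passed, where 3.6% of tested genes did in either direction. An unadjusted p under 0.05 was reached by 0 of the 44 and by 2570 of 14535 tested genes. The median log2 change was 0.07 and 31 genes were higher. In KO 0 of the 44 passed, where 0.0963% of tested genes did, and the median was 0.08 with 37 higher. There 0 of the 44 had an unadjusted p under 0.05, where 1738 of 14535 tested genes did. The DESeq2 Wald test also called 0 in each genotype. Orc1 had the largest WT value against the others, -0.44 ± 0.27 (adjusted p = 0.424), with ranges that overlapped.

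The 13 WT genes with a lower mean on day 10 than on day 9 came from every role, and none passed. Mcm2, a subunit of the helicase ring, held 76.3, 63.7 and 67.2 CPM on day 9 and 67.8, 62.7 and 74.4 on day 10 (-0.02 ± 0.22). Pola2, the accessory subunit of polymerase alpha, was at 37.6, 28.9 and 32.1 CPM on day 9 and 32.9, 32.05 and 32.9 on day 10 (-0.01 ± 0.14). Pole2, the second subunit of polymerase epsilon, was at 7.13, 5.44 and 6.13 CPM on day 9 and 6.97, 4.70 and 5.74 on day 10 (-0.10 ± 0.18). All 3 had days that overlapped. Pold2 held 20.04, 16.6 and 18.8 CPM on day 9 and 16.7, 13.9 and 15.7 on day 10 (-0.26 ± 0.16). Rfc3, a clamp loader subunit, was at 11.1, 11.1 and 10.5 CPM on day 9 and 10.5, 9.40 and 10.2 on day 10 (-0.12 ± 0.14). For Fen1 the values were 62.9, 52.9 and 54.8 CPM on day 9 and 52.02, 49.9 and 62.2 on day 10 (-0.06 ± 0.15). The days overlapped for each of these as well. Dscc1 held 3.23, 2.05 and 2.86 CPM on day 9 and 2.99, 2.15 and 2.22 on day 10 (-0.14 ± 0.26). Dut, which removes dUTP from the nucleotide pool, was at 31.4, 29.7 and 29.7 CPM on day 9 and 24.2, 25.5 and 32.8 on day 10 (-0.14 ± 0.21). Ung, which cuts uracil out of DNA, was at 10.1, 8.05 and 10.1 CPM on day 9 and 7.65, 8.11 and 9.12 on day 10 (-0.18 ± 0.25). Here too the days overlapped. Chaf1b held 25.3, 19.5 and 20.2 CPM on day 9 and 19.5, 18.7 and 20.2 on day 10 (-0.15 ± 0.15). E2f1 was at 47.9, 45.95 and 42.9 CPM on day 9 and 41.8, 44.5 and 47.5 on day 10 (-0.03 ± 0.07). Pcna was at 140.1, 143 and 143 CPM on day 9 and 134, 121 and 153 on day 10 (-0.06 ± 0.08). With Orc1 these make up the 13. In KO the genes lower on day 10 were Mcm2, Orc1, Gins1, Gins2, Pole2, Rfc3 and Dut, and none passed either. KO libraries held for Mcm2 54.8, 93.8 and 77.3 CPM on day 9 and 92.4, 52.6 and 79.05 on day 10 (-0.01 ± 0.22). For Gins1 they held 5.24, 9.36 and 7.94 CPM on day 9 and 8.29, 5.99 and 8.02 on day 10 (-0.02 ± 0.21). For Gins2, another GINS subunit, they held 12.3, 17.2 and 13.9 CPM on day 9 and 15.02, 11.1 and 12.9 on day 10 (-0.16 ± 0.17). Library 67 was the lowest of day 10 in each. Pole2 in KO was at 5.85, 7.15 and 8.14 CPM on day 9 and 7.42, 4.87 and 6.07 on day 10 (-0.20 ± 0.17). Rfc3 in KO was at 10.03, 12.1 and 12.1 CPM on day 9 and 13.03, 9.76 and 11.4 on day 10 (-0.00 ± 0.14). Dut in KO was at 20.8, 37.7 and 31.8 CPM on day 9 and 34.8, 22.04 and 31.7 on day 10 (-0.03 ± 0.21). Their days overlapped as well.

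Over the whole period, 41 of 44 genes rose in WT and 1 fell, where 18.9% of tested genes rose and 18.1% fell. The median change was 1.58 on the log2 scale, and by role it was largest for nucleotide supply (2.02) and smallest for the clamp and clamp loaders (0.59). The largest single change was that of Orc1 at 2.93 ± 0.34 (adjusted p = 2.57e-06). The gene that fell was Rfc2, by 0.21 (SE 0.08, adjusted p = 0.0475). That call depends on the method, since the value turned to 0.067 with limma on log2(TPM + 1), where unit, scaling and test all differ. Pcna and Cdt1 were the 2 genes not called in WT. In KO 42 rose and 1 fell, where 19.7% rose and 17.1% fell among tested genes, with a median of 1.223. Rfc2 was again the gene that fell, and its value turned to 0.038 on the log2(TPM + 1) scale. All 42 genes called in WT were called the same way in KO, where 73.2% of the WT calls over all genes were, and Cdt1 was the KO gene in addition (0.38 ± 0.12, adjusted p = 0.0193). With the high Ddx3y libraries left out, 41 rose in WT, where 16.8% of tested genes did, and 42 in KO, where 18.7% did, and none fell.

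In KO fewer of the genes passed at the first step. From day 7 to day 8, 12 of the 44 rose and 2 fell, where 21.1% of tested genes rose and 20.9% fell. The median log2 change was 0.30, with 36 genes higher. All 14 calls were shared with WT in the same direction, which is 48.3% of the 29 WT calls. Over all genes 76.6% of the WT calls and 79.2% of the KO calls at this step were shared. The 12 that rose were Mcm2, Mcm4, Mcm5, Orc1, Pole2, Pold2, Dscc1, Tyms, Dut, Uhrf1, Ccne1 and Ccne2. The ranges of the 2 days were apart in the rising direction for 5 of the 44 genes in KO, where they were for 23% of tested genes, and for 36 of the 44 in WT, where they were for 29.8%. The count of 14 moved with single KO libraries, to 4, 8 and 7 without library 64 on day 7, 68 on day 7 and 64 on day 8, and to 4 and 22 without 67 and 68 on day 8. The shares of all tested genes in those fits are not given here. Without the high Ddx3y library of each group 19 rose and 1 fell, where 21.3% and 18.9% of tested genes did, and the median was 0.41. The median was 0.51 without library 67 on day 7, 0.11 without 67 on day 8 and 0.50 without 68 on day 8.

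Orc1 in the KO libraries 64, 67 and 68 was at 1.32, 0.985 and 0.985 CPM on day 7, 2.90, 4.92 and 2.66 on day 8, 3.42, 6.63 and 5.57 on day 9 and 5.99, 3.94 and 4.39 on day 10. Day 7 lay below every later library, and the change to day 8 was 1.67 ± 0.31 (log2, adjusted p = 0.000185). Mcm5 was at 22.5, 40.1 and 28.3 CPM on day 7, 52.9, 77.3 and 31.3 on day 8, 65.04, 126 and 102 on day 9 and 131, 69.9 and 106 on day 10. Its days 7 and 8 overlapped, since library 68 of day 8 stayed below library 67 of day 7, and the change was 0.83 ± 0.29 (adjusted p = 0.0277). Ccne2, which had the largest SD of log2 CPM of the 44 genes in KO on day 8, was at 2.63, 6.13 and 4.16 CPM on day 7 and 8.60, 15.04 and 2.87 on day 8. Library 68 of day 8 was within the day 7 range, and the change was 1.05 ± 0.41 (adjusted p = 0.0464).

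In KO 8 genes were lower on day 8 than on day 7, Gins1, Rfc5, Lig1 and Tk1 with the 4 already named for WT, and of the 8 Rfc2 and Pcna passed. Gins1 (chr2:150905400-150931280, plus strand), a subunit of the GINS complex, held 4.27, 5.87 and 4.50 CPM in KO on day 7 and 3.79, 5.23 and 2.66 on day 8, a change of -0.32 ± 0.23 that did not pass (adjusted p = 0.279). In WT it rose by 0.67 ± 0.24 (adjusted p = 0.0267). Tk1 in KO was at 4.75, 7.33 and 6.55 CPM on day 7 and 4.26, 9.82 and 3.00 on day 8, so that the days overlapped (-0.11 ± 0.36, adjusted p = 0.834). Library 67 was the highest of the 3 on both days for Gins1 and for Tk1. Rfc5, a clamp loader subunit, was at 18.7, 20.8 and 19.2 CPM on day 7 and 17.6, 23.1 and 13.4 on day 8, and Lig1 at 18.8, 24.5 and 15.6 and 18.3, 27.04 and 12.1. Both overlapped between the days and neither passed.

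From day 8 to day 9 all 44 genes were higher in KO too, with a median of 0.71 (log2). An unadjusted p under 0.05 was reached by 40 of the 44 and by 2720 of 14535 tested genes. Of the 44, 11 passed over all genes, where 1.31% of tested genes rose. They were Mcm3, Gins1, Gins2, Rfc2, Rfc3, Fen1, Lig1, Rrm2, Tk1, Chaf1a and Chaf1b, and 7 of the 11 were called in WT as well. That is 63.6% of the calls of each genotype, and over all genes 71.0% of the KO calls and 30.6% of the WT calls were shared. Tk1 held 9.45, 21.3 and 17.8 CPM on day 9 and 27.2, 13.1 and 25.2 on day 10, and rose by 1.497 ± 0.36 (adjusted p = 0.0345). Lig1 went from 18.3, 27.04 and 12.1 to 27.1, 53.7 and 44.8 CPM, with the lowest day 9 library just above the highest of day 8 (1.13 ± 0.28, adjusted p = 0.0433). Chaf1b went from 10.8, 13.5 and 9.80 to 16.8, 23.6 and 22.5 CPM without overlap (0.88 ± 0.15, adjusted p = 0.00465).

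The KO count of 11 moved with single libraries over a wider range than the WT one. It was 0 in a fit of the KO day 8 and day 9 libraries alone, in which 0 of all genes passed, and 31 without the high Ddx3y library of each group, where 3.07% of tested genes rose. It was 36 without library 64 on day 9, 30 without 67 on day 8 and 23 without 67 on day 10. It was 1 without 64 on day 8, without 67 on day 9 or without 68 on day 9, and 2 without 68 on day 8. Leaving out WT mouse 66 on day 7, mouse 65 or 66 on day 9, mouse 65 on day 10 or KO library 68 on day 7 gave 6, and leaving out WT mouse 63 or 66 on day 8, WT mouse 66 on day 10 or KO library 68 on day 10 gave 7. The median kept its sign in every one of these fits, between 0.53 and 1.01.

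On day 7 the replication genes were higher in KO than in WT for 41 of 44 genes, by a median of 0.43 on the log2 scale, and none passed the test over all genes. The count was 0 of 44 in edgeR's quasi-likelihood test, where 1.45% of tested genes passed in either direction. An unadjusted p under 0.05 was reached by 17 of the 44 and by 2280 of 14535 tested genes. For 30 of the 44 every KO library lay above every WT library, where 11.9% of tested genes did so. The median of all tested genes was -0.01. By role the medians were 0.65 for licensing and firing, 0.67 for chromatin assembly, 0.58 for nucleotide supply, 0.53 for flap and ligation, 0.46 for MCM genes, 0.26 for polymerases, 0.22 for E2F and cyclin E and 0.09 for the clamp and its loaders.

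Asf1b (chr8:83955507-83970197, plus strand), a histone chaperone, is named here after its values were seen, because it had the largest day 7 difference. It held 5.66, 4.40 and 5.09 CPM in the WT libraries and 7.02, 20.2 and 11.5 in the KO libraries 64, 67 and 68. The lowest KO library was above the highest WT library, library 67 was well above the other two, and the difference was 1.35 ± 0.40 (log2, adjusted p = 0.0988). Gins1 came closest to the threshold, at 2.37, 3.04 and 2.69 CPM in WT and 4.27, 5.87 and 4.50 in KO (0.85 ± 0.24, adjusted p = 0.0746). Its ranges did not overlap, and its 3 KO libraries were closer together than those of Asf1b. Pole was at 6.54, 11.7 and 5.31 CPM in KO (1.14 ± 0.37, adjusted p = 0.131), Uhrf1 at 15.3, 26.7 and 17.2 (1.01 ± 0.35, adjusted p = 0.160) and Orc1 differed by 1.17 ± 0.38 (adjusted p = 0.125). All 3 were above their WT ranges in each KO library.

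Other ways of testing put some of these genes past the threshold on day 7. The DESeq2 Wald test called 6 (Mcm5, Gins1, Gins2, Pole, Uhrf1 and Asf1b), where 4.17% of genes were called in either direction. The fit with no filter on low counts called 5 of the same 6, without Gins2, where 1.19% were called, and the fit of the day 7 libraries alone called Mcm3 and Fen1, where 2.13% were. Without the library of high Ddx3y in each group 7 were called, where 2.22% of tested genes were, and the median was 0.58. With the Xist class as a covariate in each genotype, added after seeing the data, 12 were called, where 4.71% were. Leaving out KO library 64 on day 7, 67 on day 8 or 68 on day 8 gave 1 call each, and the other single libraries gave 0, with the shares of all tested genes not given here. The KO libraries also differed in other measures on day 7. The 10 most counted genes took 20.2%, 17.2% and 19.8% of counts in KO libraries 64, 67 and 68, against 20.9% to 21.3% in WT. The summed CPM of 9 neutrophil markers was 5967 in library 67 against 1754 to 3465.5 in the other 5, and that of 4 monocyte markers was 1107 there against 455 to 702. The mast cell or basophil sum was 65.7 in library 67 and 36.2 in library 68, against 14.1 to 21.2 in the other 4, and the progenitor sum was 53.6 in library 67 against 25.2 to 33.5 in the other 5. Library 67 had the highest replication level of day 7, at 3.96 log2 CPM, and the part of these measures in the difference was not tested. Without library 67 the day 7 median was 0.32, the lowest value with any single library left out, and the highest was 0.53.

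On days 8, 9 and 10 the median differences between genotypes were near 0 and no gene passed. The medians of the 44 genes were 0.01, 0.06 and 0.09 on the log2 scale, with 26, 31 and 37 genes higher in KO. None of the 44 was called on any of these days, where 0.00688%, 0.00688% and 0.0138% of tested genes were. An unadjusted p under 0.05 was reached by 0 of the 44, and by 859, 1185 and 1061 of 14535 tested genes. The DESeq2 Wald test called 0 on each of the 3 days as well. No member had KO and WT ranges apart on these days, where 9.4%, 14.1% and 10.4% of tested genes did in either direction. With the high Ddx3y library of each group left out, the medians were 0.32, 0.37 and 0.33, and 0 genes were called, with 9, 15 and 7 at an unadjusted p under 0.05. The share of all tested genes at that p in this fit is not given here. Single KO libraries moved the medians of the full set across 0, to -0.22 without 67 on day 8, -0.11 without 67 on day 9 and -0.08 without 64 on day 10. They were 0.22, 0.26 and 0.29 without 68 on day 8, 64 on day 9 and 67 on day 10.

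**Figure D3:**
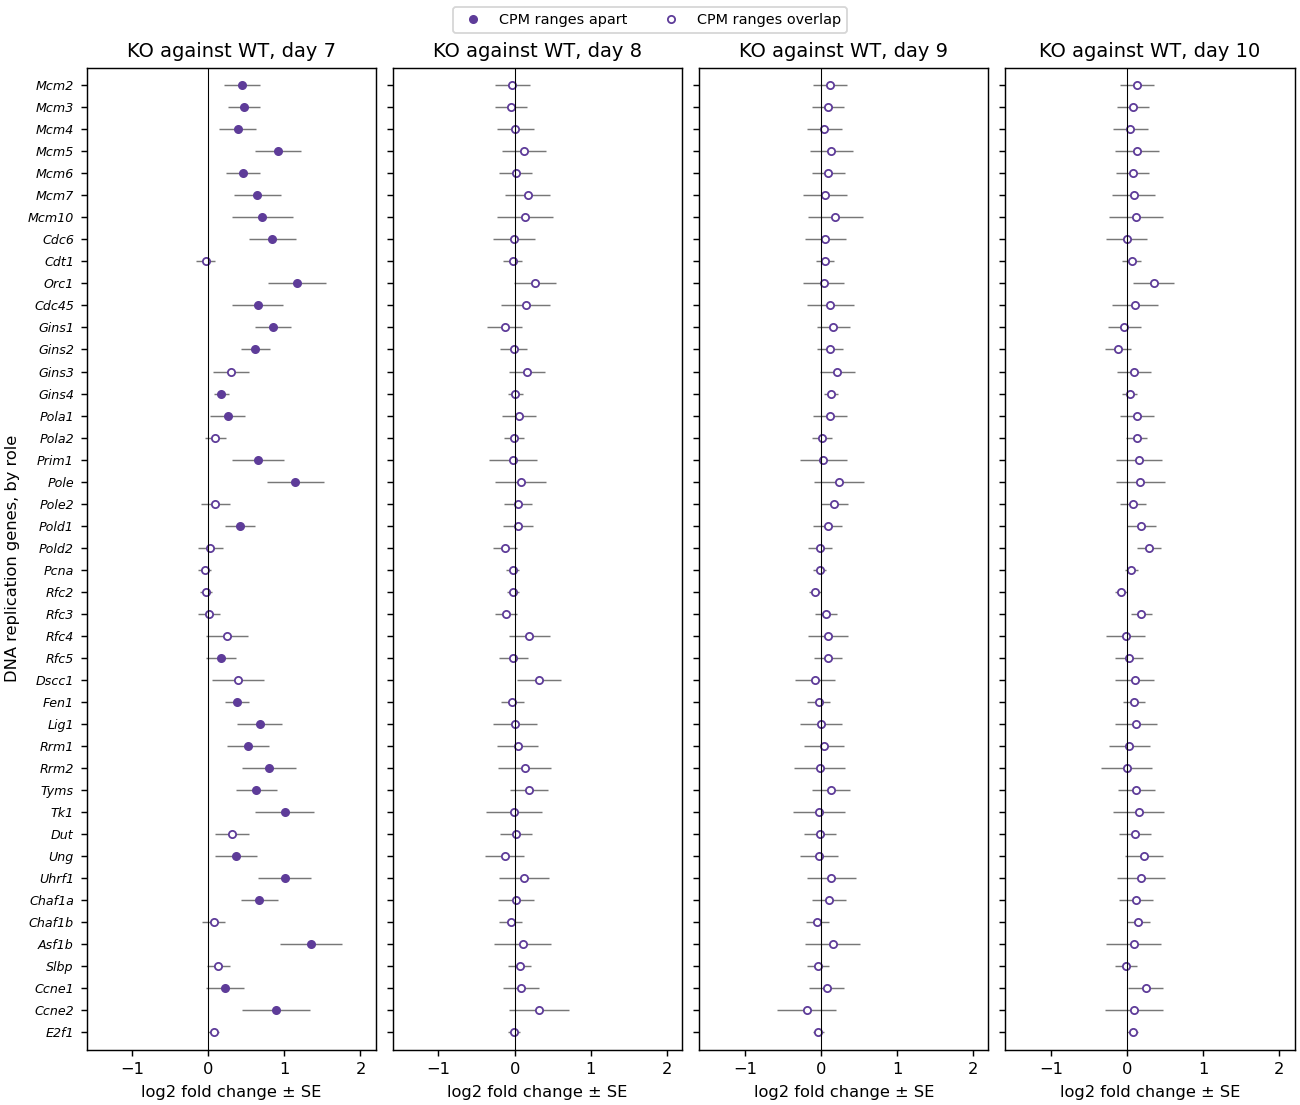
Log2 fold change with SE of KO against WT for each of the 44 genes on each day, with genes ordered by role. Filled points are genes whose 3 KO and 3 WT libraries do not overlap in CPM, and no point passed the test over all genes. On day 7, 30 points are filled and lie right of 0, and on days 8, 9 and 10 all are open and close to 0.

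Whether the day steps themselves differed between genotypes was tested as an interaction. The change from day 7 to day 8 was smaller in KO for 41 of 44 genes, by a median of -0.44 on the log2 scale. It is the genotype difference of day 8 less that of day 7, so it is not separate from the day 7 result. No gene of the 44 passed, where 0.0275% of tested genes did. An unadjusted p under 0.05 was reached by 4 of the 44 and by 683 of 14535 tested genes. Gins1 had the lowest adjusted p, at -0.99 ± 0.33 (adjusted p = 0.748), and Asf1b the largest value (-1.24 ± 0.55, adjusted p = 0.999). The median was -0.23 without KO library 67 on day 7, -0.71 without 67 on day 8 and -0.23 without 68 on day 8. For the steps to day 9 and to day 10 the medians were 0.03 and 0.01, and none was called, where 0% of tested genes were in each. There 0 of the 44 had an unadjusted p under 0.05, where 171 and 177 of 14535 tested genes did. For the change from day 7 to day 10 the median was -0.33, 36 genes had a smaller change in KO, 4 had an unadjusted p under 0.05 and none was called, where 0.0619% of tested genes were. This change too takes in the day 7 difference, and the share of tested genes at that unadjusted p is not given here. That median was -0.19 without KO library 67 on day 7, and -0.53 and -0.16 without 64 and 67 on day 10. The DESeq2 Wald test called 0 of the 44 in all 4 of these tests. The 4 medians without the high Ddx3y libraries were -0.24, 0.03, -0.05 and -0.30, with 0 genes called.

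Over all 3 libraries of each group, replicate spread was wider in KO than in WT for nearly all of the replication genes. The median SD of log2 CPM over the 44 was 0.14, 0.19, 0.18 and 0.18 in WT from day 7 to day 10, and 0.25, 0.47, 0.43 and 0.40 in KO. The KO value was the larger for 37, 39, 43 and 42 of the 44 genes on these days. Among all tested genes the KO SD was the larger for 62.7%, 68.0%, 58.3% and 59.8%. Without the high Ddx3y libraries the KO SD was the larger for 33, 38, 31 and 16 of the 44 genes. Among all tested genes it was then the larger for 57.1%, 53.5%, 54.9% and 49.3%. The medians without those libraries were 0.12 in WT and 0.17 in KO on day 9, and 0.23 in WT and 0.17 in KO on day 10. The wider KO spread was therefore smaller on day 9 and not seen on day 10 without the high Ddx3y libraries. Spread was not tested between genotypes, since each SD rests on 3 libraries or, without those, on 2.

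The genes moved together from library to library. In KO on day 9, Mcm5 was at 65.04, 126 and 102 CPM in libraries 64, 67 and 68, Rrm1 at 75.3, 148 and 128 and Pold1 at 32.6, 54.2 and 43.3, each lowest in 64 and highest in 67. Library 64 was the lowest of the 3 for 44 of 44 genes on day 9, and library 67 the lowest for 44 of 44 on day 10, where the same libraries were lowest for 38.7% and 42.1% of tested genes. On days 7 and 8 the lowest libraries were 64 (33 of 44 genes) and 68 (37 of 44). These are the 4 libraries with high Ddx3y. The highest KO library was 67 on days 7, 8 and 9, for 32, 40 and 42 genes, and 64 on day 10, for 43. In WT mouse 65 was lowest for 26, 41, 38 and 39 genes on the 4 days, and mouse 63, the one with high Ddx3y, was highest for 25, 38 and 38 on days 7, 8 and 9 and mouse 66 for 32 on day 10. The library with high Ddx3y had the lowest replication level of its day in KO and not in WT, where it was always mouse 63. This contrast between genotypes was not tested.

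**Figure D4:**
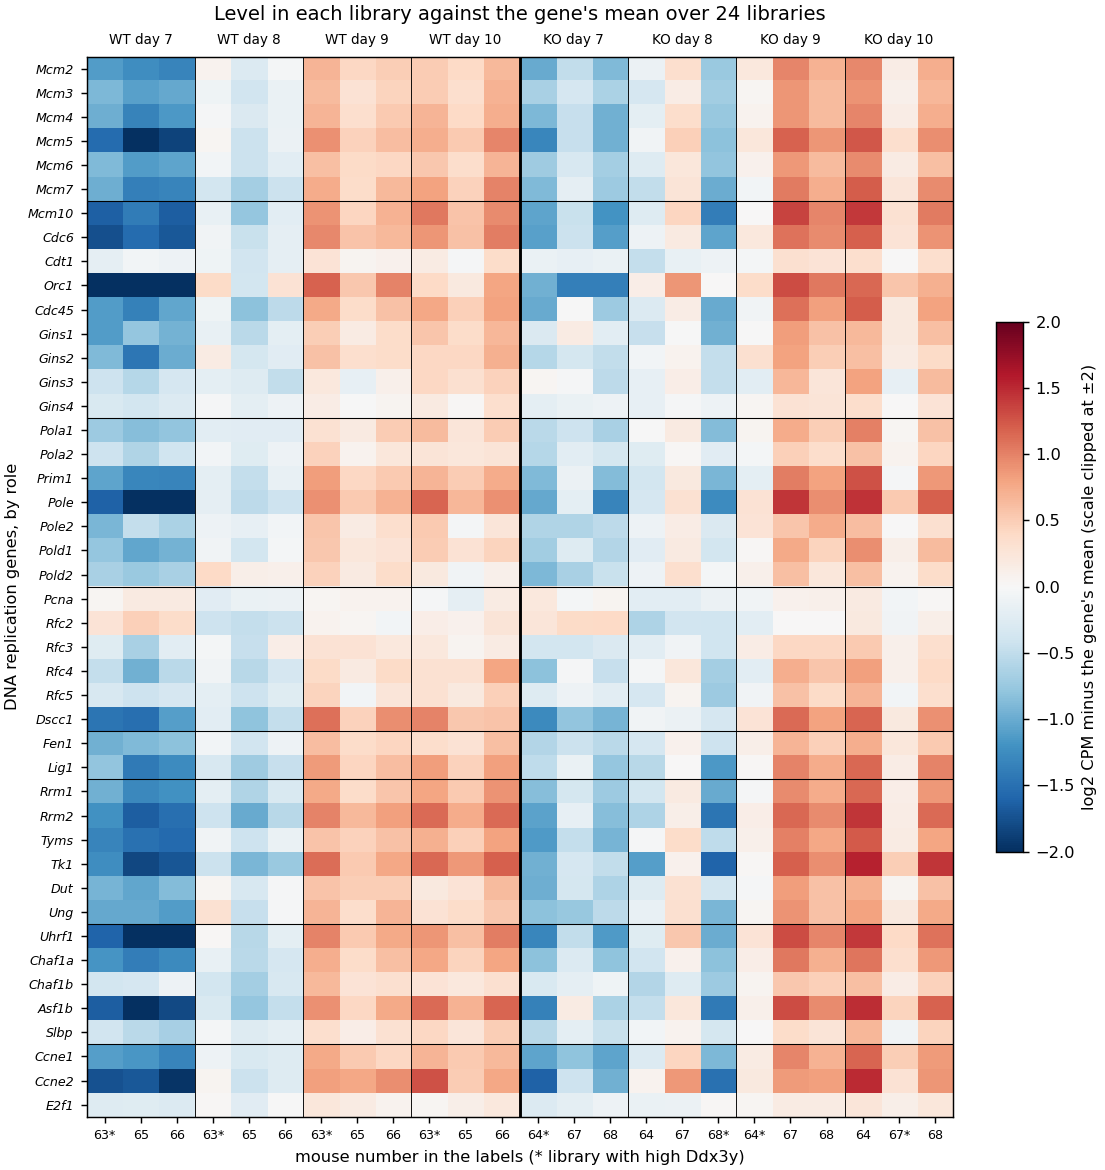
Log2 CPM of each of the 44 genes in each of 24 libraries, minus the gene's mean over all libraries, with blue for below and red for above and the scale clipped at 2 either way. Columns are mouse numbers within genotype and day, and an asterisk marks the library with high Ddx3y. In KO the asterisked column is the palest on days 9 and 10 and the bluest on day 8, for nearly all rows together.

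Other markers moved with the replication level within KO on days 8, 9 and 10. On day 9 the library at 4.33 log2 CPM of replication genes (64) had a macrophage marker sum of 3358 CPM against 2470 and 2688 in the other two, and a dendritic cell marker sum of 3166 against 5672 and 4161. On day 10 the library at 4.44 (67) had 3221 against 2230 and 2465 for macrophage markers, and 4280 against 6806 and 5358 for dendritic cell markers. On day 8 the library at 3.56 (68) had 3940 against 2833 and 3407, and 2383 against 4099 and 3098. The 4 progenitor markers summed to 49.2 to 54.8 CPM in those 3 libraries and to 63.7 to 103 in the other 6 of days 8, 9 and 10. The 10 most counted genes took 13.9%, 14.8% and 14.5% of counts in the 3 low libraries and 9.31% to 12.4% in the other 6. On day 7 the library at 3.53 (64) had a macrophage sum of 4378 against 3716 and 4416 in 67 and 68, so that it was not the highest there, a dendritic cell sum of 2366 against 2858 and 2829.5 and a progenitor sum of 25.2 against 53.6 and 33.5. In WT mouse 65, the lowest in replication level on every day, had the highest macrophage sum each day (4228, 3604, 2902 and 2574 CPM). Its 10 most counted genes took the largest WT share on days 8, 9 and 10 (14.05%, 14.6% and 15.1%). Unlike in KO, its dendritic cell sum was never the lowest and its progenitor sum was the highest on every day. What these markers contribute to the replication level was not tested.

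Over time the summed macrophage markers went down and the summed dendritic cell markers up, alongside the replication genes. In WT the macrophage sum was 4020 to 4228 CPM on day 7 and 2444 to 2574 on day 10, with 4 of 6 markers falling. The progenitor sum in WT was 27.0 to 33.2 CPM on day 7 and 54.3 to 73.0 on day 8, with 2 of 4 markers rising, and stayed at 53.2 to 56.2 on days 9 and 10. The dendritic cell sum in WT was 2129 to 2599 CPM on day 7 and 4529 to 6094 on day 10, with 4 of 7 markers rising, and in KO 2366 to 2858 and 4280.4 to 6806, again with 4 rising. The neutrophil sum in WT was 1754 to 3376 CPM on day 7 and 4051 to 5924 on day 10, with 5 of 9 markers rising and 1 falling. In KO it overlapped between these days, at 2343 to 5967 and 2878 to 4809, with 0 rising and 1 falling. In KO 5 of 6 macrophage markers fell and 2 of 4 progenitor markers rose from day 7 to day 10. Their part in the change of the replication genes was not tested.

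As a description of how tightly the 44 were tied, each gene's deviations from its group means were correlated with the mean deviation of the other members over the 24 libraries, which share depth and scaling factors. The median r was 0.92 and 34 of 44 genes were over 0.8. Among the 14491 tested genes outside the list the median r was 0.00 and 5.98% were over 0.8, and for the 28 mitosis genes the median was 0.96. Without the high Ddx3y libraries, over 16 libraries, the median r was 0.87 for the 44 and 0.94 for the mitosis genes. Over all 24, Rrm1 was the closest to the common course at 0.99. Pcna (0.17), E2f1 (0.31) and Rfc2 (0.55) were the loosest over all 24, and each also changed little or fell over the days. In WT alone the loosest were Pcna (0.14), Rfc2 (0.30) and Pole2 (0.39), with E2f1 at 0.59. In KO alone they were Pcna (0.20), E2f1 (0.23) and Cdt1 (0.51), with Rfc2 at 0.63.

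A wider list of 52 further replication genes also rose over the whole period for the most part, with smaller medians than the 44 over that time and at the step from day 8 to day 9 in both genotypes. At the step from day 7 to day 8 its median was below that of the 44 in WT and not in KO. The differences between the lists were not tested. In WT 26 rose and 3 fell from day 7 to day 8 (median 0.47), 9 rose from day 8 to day 9 (median 0.47), 1 fell from day 9 to day 10, and 40 rose over the whole period (median 0.97). Among tested genes in WT 21.5% rose and 22% fell at the first step, 3.06% rose at the second and 18.9% over the whole period. From day 9 to day 10, 3.6% passed in either direction. In KO 16 rose and 3 fell at the first step, 3 rose at the second, and 38 rose and 1 fell over the whole period (medians 0.33, 0.49 and 0.75). Among tested genes in KO 21.1% rose and 20.9% fell at the first step and 1.31% rose at the second. Over the whole period 19.7% rose and 17.1% fell. Cdca7, an E2F and Myc target, had the largest first step in both genotypes, at 1.99 ± 0.28 in WT (adjusted p = 9.80e-06) and 1.59 ± 0.27 in KO (adjusted p = 9.35e-05). E2f2 had the largest fall, at -0.94 ± 0.32 in WT (adjusted p = 0.0214) and -1.15 ± 0.31 in KO (adjusted p = 0.00582). Orc2, a subunit of the origin recognition complex, was the WT gene that fell from day 9 to day 10, at -0.40 ± 0.09 (adjusted p = 0.0226). E2f7, a repressor of E2F targets, had the largest WT change over the whole period at 3.04 ± 0.49 (adjusted p = 6.46e-05), and Hells, a chromatin remodeller, the largest in KO at 2.02 ± 0.35 (adjusted p = 0.000172). Pold4, the small subunit of polymerase delta, fell in KO by 0.43 (SE 0.11, adjusted p = 0.00399) over that time. Without the high Ddx3y libraries the counts that rose were 25, 15 and 37 in WT and 23, 17 and 37 in KO. The shares of tested genes that rose in that fit are those given above for the 44. Between genotypes 0 of the 52 passed on any day (3 on day 7 without the high Ddx3y libraries), with 4 at an unadjusted p under 0.05 on day 7. On that day 1.45% of tested genes passed in either direction, and 2280 of 14535 had an unadjusted p under 0.05.

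The 28 mitosis genes, which act after replication, had the larger median change at the second step. In WT 16 rose from day 7 to day 8 and 21 from day 8 to day 9, with medians of 0.94 and 1.33, where those of the replication genes were 0.80 and 0.66. Among tested genes 21.5% and 3.06% rose at these WT steps. The difference between the lists was not tested. Aurka, a spindle kinase, led the first step (1.44 ± 0.33, adjusted p = 0.00136) and Ccnb2, a mitotic cyclin, the second (1.74 ± 0.40, adjusted p = 0.0171). In KO 0 of 28 passed at the first step (1 at an unadjusted p under 0.05, median 0.27), 1 at the second (Ttk, a checkpoint kinase, 1.23 ± 0.33, adjusted p = 0.0495, median 1.15), and all 28 rose over the whole period. Among tested genes in KO 21.1% rose at the first step, 1.31% at the second and 19.7% over the whole period. At the first KO step 7144 of 14535 tested genes had an unadjusted p under 0.05. Kif23, a cytokinesis motor, had the largest change over that time in both, 3.07 ± 0.39 in WT (adjusted p = 6.03e-06) and 1.94 ± 0.36 in KO (adjusted p = 0.000337). On day 7, 28 of 28 were higher in KO by a median of 1.00, 24 had an unadjusted p under 0.05 and 0 passed. Among tested genes 2280 of 14535 had an unadjusted p under 0.05 on day 7, and 1.45% passed in either direction. Leaving out the high Ddx3y libraries, 15 passed on day 7, and 22 and 27 rose at the WT steps and 2 and 20 at the KO steps. The shares of tested genes in that fit are those given above for the replication genes.

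Some of these counts share reads with other genes or may do so. The libraries kept strand information, and whether the counting used it was not given in the sources used here. Opposite-strand neighbours had counts above those of the member for Rfc4 (Eif4a2), Rfc5 (Wsb2), Gins2 (Gse1), Rfc2 (Lat2), Ccne2 (Ints8), Cdc45 (Ufd1), Chaf1a (Ubxn6) and Mcm7 (Cops6), and Tmem258 came to 94.7% of Fen1. The values of these genes are uncertain to that extent. The Pcna pseudogene Pcna-ps2 had 0.909% of the Pcna counts, which bounds the reads that it was given.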

How the data were processed

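Poly(A) RNA was sequenced from 24 cultures in 8 groups, which were set by the genotype and day labels, with 3 mice per genotype. Per the submitters' processing notes FastQC 0.11.9, STAR 2.6.1, DESeq2 1.22.2 and build mm10 were used. The counter, its strand setting and the gene lengths behind TPM are not given in the sources used here. The authors deposited raw counts per gene and TPM per gene, and a table that pairs identifiers with symbols. Per the labels 2 library kits were used, without saying which library had which, so no kit term could be fitted. Positions are those of GENCODE M21 on GRCm38, in which 55094 of 55487 identifiers were found, and promoter sequence is from RefSeq on GRCm38.p6.

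Counts were tested in R 4.3.3 with edgeR 4.0.16. The filter filterByExpr, applied to the 8 groups, left 14535 genes, TMM factors scaled the libraries, and 1 quasi-likelihood fit with a coefficient per group and no covariate held all 24 libraries, with 16 residual degrees of freedom. The 16 comparisons were the day steps and day 10 against day 7 in each genotype, KO against WT on each day, and the difference of each change between genotypes. "Called", "passed", "rose" and "fell" mean a Benjamini-Hochberg adjusted p under 0.05 over all tested genes. Errors after ± are SE for log2 changes and SD for levels. CPM values use the TMM factors, and log2 CPM for levels a prior count of 2. The calculation was checked on simulated data. The p-values measure the spread between cultures of different mice, through a single estimate per gene shared by WT and KO. The median SD of the 44 genes on day 8 was 0.19 in WT and 0.47 in KO. A shared estimate can therefore be too small for KO comparisons of these genes and too large for WT ones.

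The members and the gene lists were chosen with earlier results of these data known. Values per library are given for the most counted member and the member with the largest called change in each role, and, for the step concerned, for members that went against the rest. The alternatives were DESeq2 1.42.0 size factors and Wald test, no filter, a mean count of at least 50, only the groups compared, limma 3.58.1 on log2(TPM + 1), the Xist class as a covariate, the mouse as a replicate block, the high Ddx3y libraries left out, and each library left out.

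The labels pair libraries across days by mouse number. Deviations of same-numbered WT libraries from their group means correlated at 0.27 on average (-0.03 to 0.49), and those of KO libraries at 0.02 (-0.78 to 0.78). The KO mean was 0.35 for days 7 and 8, 0.44 for days 7 and 9 and 0.29 for days 8 and 9. With day 10 it was -0.34 for day 7, -0.26 for day 8 and -0.37 for day 9. No library looked like a second deposit of another in its group, since the 24 pairs within groups differed by more than counting noise (chi-square per degree of freedom of 7.26 to 132).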

Additional observations from a re-analysis of the deposited data

How the results depend on the processing

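The counts of members called at the step from day 7 to day 8 in WT (29) and over the whole period in WT (42) and KO (43) stayed within 1.5 times in every alternative, as did the counts of 0 for KO against WT on days 8, 9 and 10, for the step to day 10 and for the differences of changes. The count for WT day 9 against day 8 (11) was 26 with no filter, 39 with only the groups compared, 22 with the DESeq2 Wald test, 6 with limma-trend on log2(TPM + 1), 36 with the Xist class in each genotype, and 20 without the high Ddx3y libraries. The count for KO day 8 against day 7 (14) was 5 with only the groups compared. The count for KO day 9 against day 8 (11) was 29 with no filter, 0 with only the groups compared, 27 with the Wald test, 2 with limma-trend, 19 with the Xist class as a covariate, 37 with it in each genotype, and 31 without the high Ddx3y libraries. The count for KO against WT on day 7 (0) was 5 with no filter, 2 with only the groups compared, 6 with the Wald test, 12 with the Xist class in each genotype and 7 without the high Ddx3y libraries. The causes were not tested, except that a fit of fewer libraries estimates the spread from fewer of them. With only the groups compared, a day step takes its spread from a single genotype, while the main fit shares it between both.

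With single libraries left out the counts ran from 23 to 35 (WT day 8 against day 7), 2 to 21 (WT day 9 against day 8), 40 to 43 (WT day 10 against day 7), 4 to 22 (KO day 8 against day 7), 1 to 36 (KO day 9 against day 8), 38 to 43 (KO day 10 against day 7) and 0 to 1 (KO against WT on day 7). For these fits the share of all tested genes called is not given beside the counts. Calls held in every fit for 21 of 29, 2 of 11 and 40 of 42 WT genes and for 3 of 14, 0 of 11 and 36 of 43 KO genes, for the steps to day 8 and day 9 and for day 10 against day 7. A replicate block for the mouse gave counts of 28, 10 and 41 in WT, 13, 11 and 43 in KO and 0 between genotypes on every day, and the pairing moved no count by over 1.5 times. Within a genotype the mouse was a term of the fit. Between genotypes it entered as a correlation, estimated at 0.0046, which leaves those tests almost as without it. In KO that pairing uses numbers that the sex-linked transcripts go against.

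Single genes were followed where they were called, and on day 7 between genotypes also at an unadjusted p under 0.05. Of these, 5294 values kept their direction and side of the threshold, 342 lost it, 35 gained it, each in KO against WT on day 7, and 2 reversed. Gains of other uncalled genes enter the counts above only. Those 2 were Rfc2 for day 10 against day 7 with limma-trend on log2(TPM + 1), 0.067 in WT and 0.038 in KO. With 3 mice per group and the KO spread, differences of the size seen at single days can go uncalled, and the low count of Orc1 and Dscc1 adds counting error.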
